A study of Homo sapiens with 4 samples.

Results

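The genes described here are 9 messenger RNAs that publications have named as direct targets of the microRNA miR-214 in cancer cells: HDGF, FGFR1, CTNNB1, TFAP2C, E2F2, E2F3, EZH2, BCL2L2 and ARL2. They were taken as a list of names, and all of their probes were read. The 9 genes have 11 probes among 28264, and they are 9 of 19090 genes that the arrays measured by name. Cells labelled HepG2, a line from a human liver tumour, were transfected with a miR-214 mimic, with either of the small interfering RNAs siPVT1-1 and siPVT1-2 against the long noncoding RNA PVT1, or with a negative control duplex (NC) that has no match in the human genome. Total RNA of each transfection was hybridised to 1 OneArray Plus chip in 1 colour, so each of the 4 groups holds 1 array and no difference has a replicate check. The dose, the time after transfection and the strand that the mimic carries are not given in the sources used here. All groups share the cell line and the transfection reagent, and every difference from NC rests on the same control array. In RNA from a whole culture, fewer cells that express a gene and less RNA per cell cannot be told apart.

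A microRNA is a short RNA that sits in an Argonaute protein and pairs with messenger RNAs mainly through its seed, the bases near its 5′ end. Pairing usually leads to faster decay of the messenger, weaker translation, or both, so an array sees only the part of the response that reaches the RNA. In tumours miR-214 has been described mostly as a brake on growth, survival and invasion, and PVT1 as an RNA that can oppose it. No protein was measured here, and target sites in these 9 messengers were not analysed here.

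The mature strands of miR-214 are shown first because the mimic is built on this microRNA, followed by the other human microRNAs with the seed of the 3p strand. Bases 2 to 8, the seed, are in capitals, and the sequences are those of RefSeq on GRCh38.p14. The 3p strand lies at chr1:172138816-172138837 and the 5p strand at chr1:172138857-172138878, both on the minus strand.
hsa-miR-214-3p: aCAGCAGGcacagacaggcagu
hsa-miR-214-5p: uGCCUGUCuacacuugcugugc
hsa-miR-761: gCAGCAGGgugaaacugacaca
hsa-miR-3619-5p: uCAGCAGGcaggcuggugcagc
Of 2370 mature human microRNAs in that table, 3 carry the seed CAGCAGG: miR-214-3p, miR-761 and miR-3619-5p. The seed of miR-214-5p differs from it. The messenger letters that pair with the 3p seed are CCUGCUG.

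The 4 arrays had median deposited intensities of 828.1 (mimic), 835.9 (siPVT1-1), 784.1 (siPVT1-2) and 926.9 (NC), and levels below are intensities after quantile normalization. Each gene was read through the probe with the highest mean level. Of the named genes, 10666 had a mean log2 level above 9.72, the median of all probes, and stayed above the floor of 64 on every array; all 9 reported targets were among them. A gene was counted when it differed at least 2-fold between arrays. The label HepG2 is used as given: of 11 measured hepatocyte markers 9 lay under the level filter, with albumin (ALB) at percentile 13.2 of all genes. The fibroblast, endothelial, blood cell and squamous marker lists had 4 of 10, 2 of 6, 1 of 5 and 4 of 5 measured genes above the filter, and no marker that passed the filter was 2-fold apart from NC with the mimic.

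None of the 9 reported targets was 2-fold apart from NC on the mimic array, where 4.79% of all compared genes were. The genes furthest from NC with the mimic were the survival gene BCL2L2 (log2 difference -0.83), the beta-catenin gene CTNNB1 (-0.64), the cell cycle transcription factor gene E2F3 (0.62) and the small GTPase gene ARL2 (-0.51). EZH2, E2F2, TFAP2C, FGFR1 and HDGF lay between -0.14 and 0.28. The median of the 9 was -0.09, beside -0.02 for all 10666 compared genes, whose middle 50% ran from -0.28 to 0.28. With arrays centred on their medians these values turned to 0.06 for the 9 and 0.11 for all compared genes. Below NC were 5 of the 9 targets, against 51.9% of all compared genes. At the looser limit of 1.5-fold, CTNNB1 and BCL2L2 passed as lower (9.42% of all compared genes) and E2F3 as higher (9.46%). The spread of single genes between the siPVT1-1 and siPVT1-2 arrays gives a yardstick, although these are different duplexes and not replicates. Over the 500 compared genes nearest in level to each target, the SD of that difference was between 0.21 and 0.35. Over all compared genes it was 0.29, beside a wider 0.49 for mimic minus NC.

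**Figure D1:**
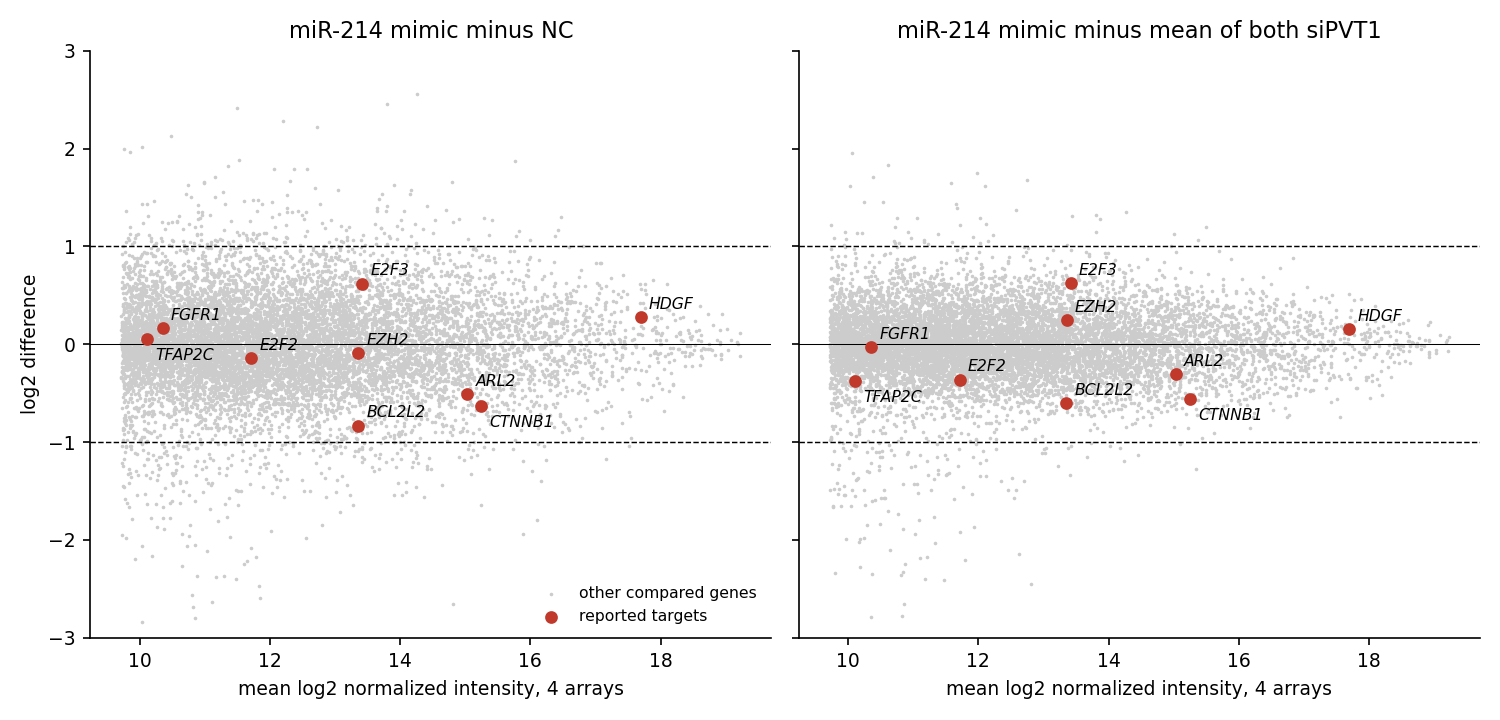
Log2 difference of the mimic array from NC (left) and from the mean of both siPVT1 arrays (right), against the mean log2 normalized intensity over the 4 arrays. Each grey point is 1 of the 10666 compared genes, red points are the 9 reported targets and dashed lines mark 2-fold; 3 genes on the left and 1 on the right lie beyond the axis. All 9 red points lie between the dashed lines in both panels, with E2F3 uppermost and BCL2L2 lowest.

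The first targets by role are a secreted growth factor and a growth factor receptor. HDGF encodes hepatoma-derived growth factor, a heparin-binding protein that is also found in the nucleus. Its brighter probe read 234483 on the mimic array, 209539 on siPVT1-1, 211715 on siPVT1-2 and 193474 on NC. The mimic array was the highest of the 4, at a log2 difference of 0.28 from NC. The second HDGF probe read 188188, 231000, 192819 and 169212 in the same order of arrays. It kept NC as the lowest array and the mimic above NC (0.15), but here siPVT1-1 was the highest and the mimic lay below it (-0.30). The 2 HDGF probes thus disagree on the order of the mimic and the siPVT1-1 array, and both lie above NC on all treated arrays.

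FGFR1, a receptor tyrosine kinase for fibroblast growth factors, read 1332 on the mimic array, 1321 on siPVT1-1, 1399 on siPVT1-2 and 1189 on NC. The treated arrays were close to each other and above NC by log2 differences of 0.16, 0.15 and 0.24. With values as deposited these differences shrank to 0.01, 0.02 and 0.05. A second, dim FGFR1 probe under the level filter read 255.0, 136.0, 161.2 and 250.5 in that order. By this probe the mimic and NC arrays stood together (0.03) and both siPVT1 arrays lay below NC (-0.88 and -0.64), so the probes disagree on the siPVT1 arrays.

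Among the transcriptional regulators, CTNNB1 was one of the targets set apart on the mimic array. Its product, beta-catenin, joins cadherins to the cytoskeleton and carries WNT signals to TCF and LEF factors in the nucleus. The CTNNB1 probe read 28735 on the mimic array, 47927 on siPVT1-1, 37334 on siPVT1-2 and 44636 on NC. The mimic array was the lowest of the 4, 1.55-fold under NC, 1.67-fold under siPVT1-1 and 1.30-fold under siPVT1-2. The siPVT1 arrays themselves differed by 0.36 on the log2 scale, the largest gap between them among the 9 targets, with siPVT1-2 the closer to the mimic.

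TFAP2C encodes the transcription factor AP-2 gamma, which acts in epithelial and germ cell development. Its probe read 982.2 on the mimic array, 1300 on siPVT1-1, 1249 on siPVT1-2 and 944.2 on NC. The mimic and NC arrays stood together at 0.06, and both siPVT1 arrays lay above NC (0.46 and 0.40) and above the mimic (-0.40 and -0.35, mimic minus siPVT1-1 and siPVT1-2). With values as deposited the mimic difference from NC turned to -0.10.

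E2F2 and E2F3 encode activator E2F factors, which are held by the retinoblastoma protein and switch on genes of DNA replication. On the mimic array their values lay on opposite sides of NC. The E2F2 probe read 2890 on the mimic array, 3918 on siPVT1-1, 3516 on siPVT1-2 and 3191 on NC. The mimic was the lowest array, by -0.14 from NC, -0.44 from siPVT1-1 and -0.28 from siPVT1-2. The E2F3 probe read 15122 on the mimic array, 9537 on siPVT1-1, 10081 on siPVT1-2 and 9833 on NC. The other 3 arrays lay within 0.08 of each other on the log2 scale, and the mimic stood above them by 0.67, 0.58 and 0.62 for siPVT1-1, siPVT1-2 and NC. E2F3 was the only one of the 9 that passed 1.5-fold upward against NC with the mimic. At least as far apart as E2F3, in either direction, were 16.7% of compared genes against NC, 11.1% against siPVT1-1 and 5.43% against siPVT1-2.

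EZH2 is the methyltransferase subunit of Polycomb repressive complex 2, which marks histone H3 on silent genes. Its probe read 11254 on the mimic array, 8835 on siPVT1-1, 10217 on siPVT1-2 and 11960 on NC. Here siPVT1-1 was the lowest array (-0.44 from NC), followed by siPVT1-2 (-0.23), while the mimic lay close to NC (-0.09). With arrays centred on their medians the mimic difference of EZH2 from NC turned to 0.11.

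BCL2L2 showed the widest range over the arrays among the 9. It encodes BCL-W, a BCL2 relative that protects cells from apoptosis. The probe read 7346 on the mimic array, 11832 on siPVT1-1, 10478 on siPVT1-2 and 13067 on NC. The mimic was the lowest array, 1.78-fold under NC, 1.61-fold under siPVT1-1 and 1.43-fold under siPVT1-2. The log2 difference from NC of -0.83 lies beside an SD of 0.28 between the siPVT1 arrays at this level. Mimic minus NC itself had a wider SD of 0.49 over all compared genes. In mimic minus NC, 4.54% of compared genes had a lower value, and 8.35% were at least as far apart in either direction.

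ARL2 encodes a small GTPase that works with tubulin folding cofactors and with carriers of lipid-tailed proteins. Its probe read 27561 on the mimic array, 36588 on siPVT1-1, 31744 on siPVT1-2 and 39283 on NC. The mimic was again the lowest array, by -0.51 from NC, -0.41 from siPVT1-1 and -0.20 from siPVT1-2. The arrays fell in the order mimic, siPVT1-2, siPVT1-1 and NC for ARL2 as for BCL2L2, and the gap between mimic and siPVT1-2 was under the SD of 0.27 between the siPVT1 arrays at that level.

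**Figure D2:**
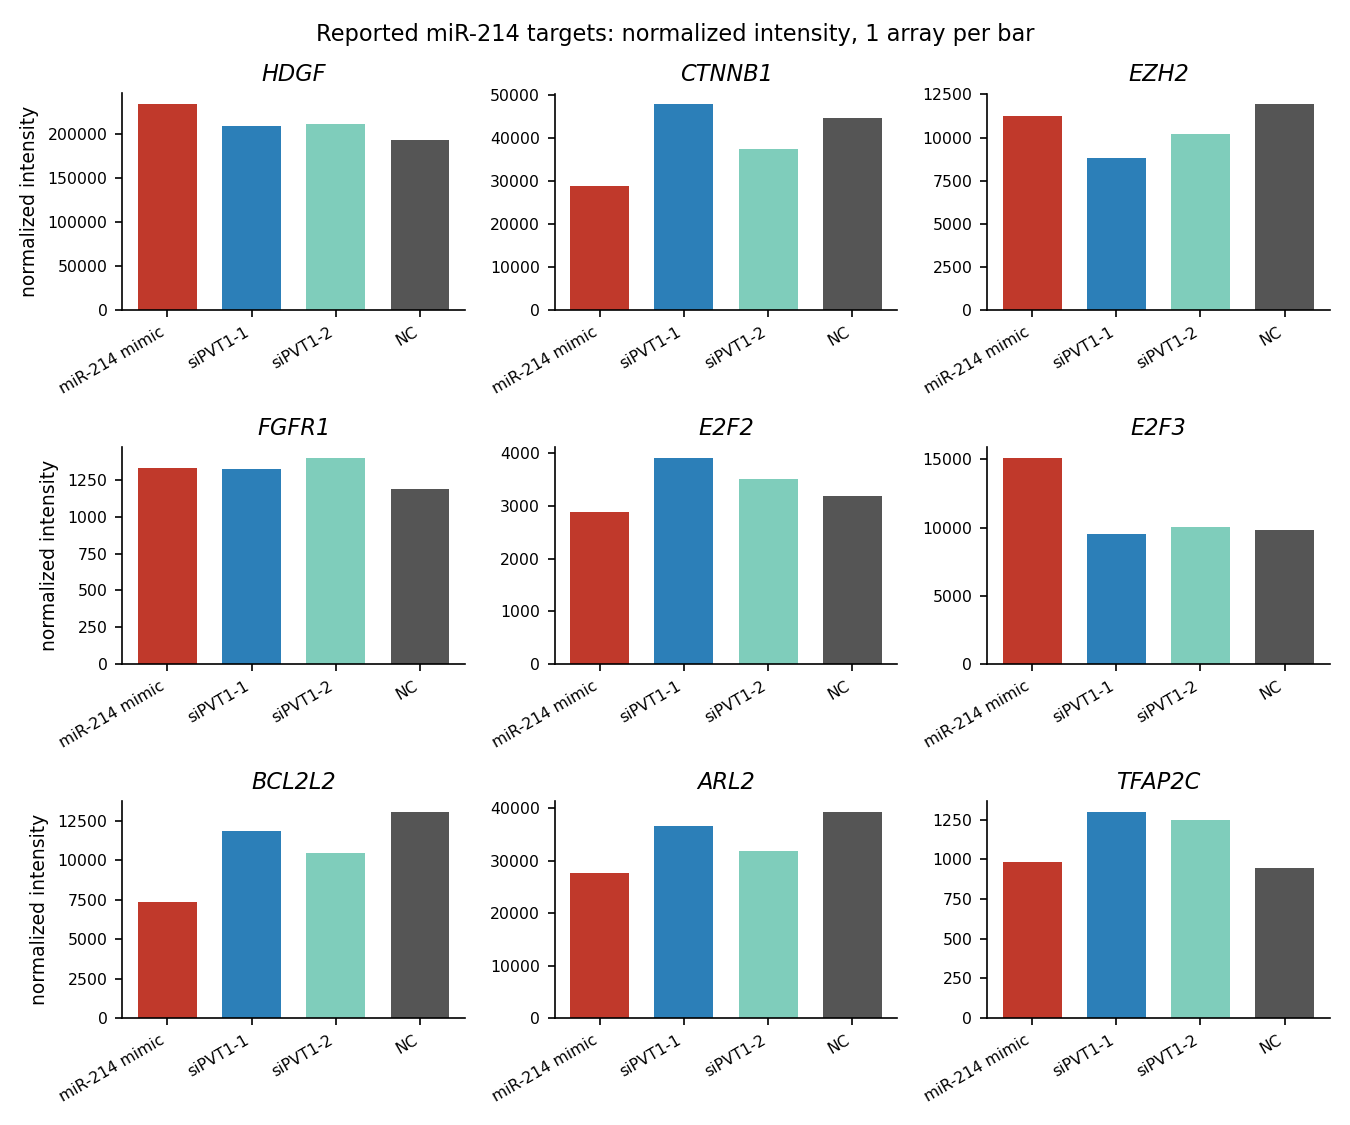
Normalized intensity of the brightest probe of each reported target; each bar is 1 array, in the order miR-214 mimic, siPVT1-1, siPVT1-2 and NC, with no error bar because each group has 1 array. The mimic bar is the shortest for CTNNB1, E2F2, BCL2L2 and ARL2 and the tallest for HDGF and E2F3.

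The design also allows the mimic to be set against both siPVT1 arrays, a comparison in which the NC array is not subtracted. NC still entered the normalization, the level filter and the choice of probe. None of the 9 targets was 2-fold apart between the mimic and siPVT1-1 (3.02% of compared genes) or between the mimic and siPVT1-2 (1.67%). The medians of the 9 were -0.40 and -0.20, beside -0.04 and 0.00 for all compared genes. Below siPVT1-1 were CTNNB1, E2F2, BCL2L2, ARL2 and TFAP2C, 5 of 9, against 54% of compared genes. Below siPVT1-2 were the same 5 and FGFR1, 6 of 9, against 49.3%. At 1.5-fold, CTNNB1 and BCL2L2 were lower than siPVT1-1 (7.58% of compared genes) and E2F3 was higher (8%). By brightest probes none passed against siPVT1-2 (5.42% either way), where E2F3, at a log2 difference of 0.58, fell just short. The dim second FGFR1 probe was 1.87-fold and 1.58-fold higher with the mimic than with siPVT1-1 and siPVT1-2.

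Read over all 4 arrays, the mimic was the lowest for 4 of the 9 targets (CTNNB1, E2F2, BCL2L2 and ARL2), against 29.7% of compared genes, and the highest for 2 (HDGF and E2F3), against 26.7%. The mimic lay at least 1.2-fold below every other array for CTNNB1 and BCL2L2, against 8.14% of compared genes, and at least 1.2-fold above for E2F3, against 7.5%. These 3 genes met that limit with values as deposited, median centring, cyclic loess, averaged probes and a floor of 16 as well. At 1.25-fold the same 3 genes passed, against 6.02% of compared genes below and 4.98% above, but with values as deposited CTNNB1 did not. Both limits were chosen after the values were seen, 1.25-fold first.

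**Figure D3:**
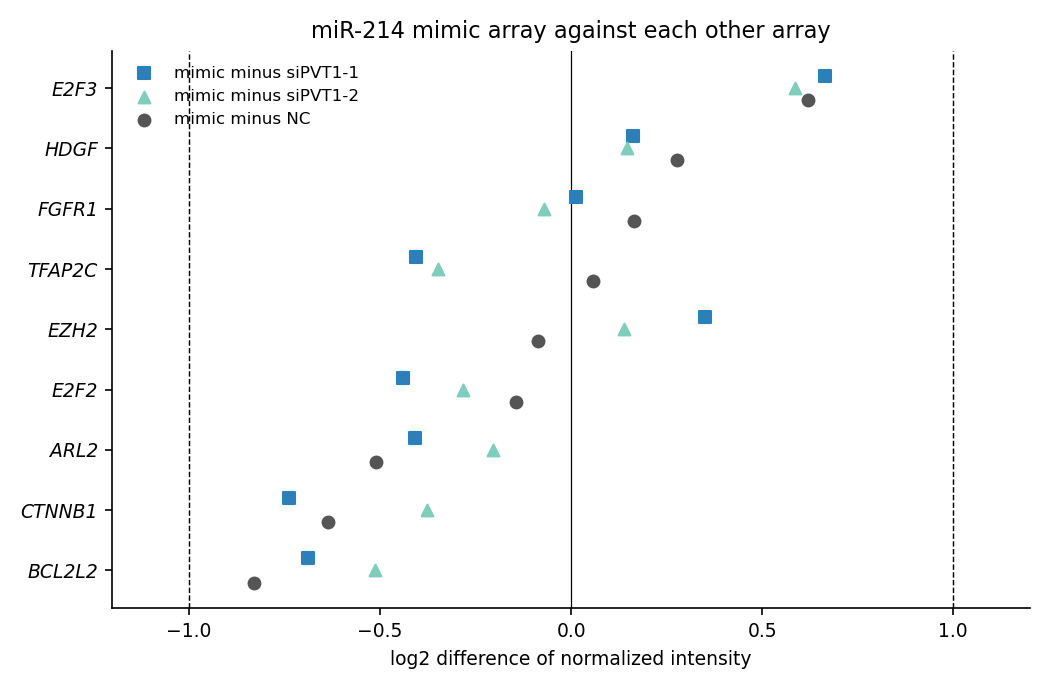
Log2 difference of the mimic array from siPVT1-1 (squares), siPVT1-2 (triangles) and NC (circles) for the 9 reported targets, sorted by the difference from NC; dashed lines mark 2-fold. For E2F3 and HDGF all 3 symbols lie right of 0, for BCL2L2, CTNNB1, ARL2 and E2F2 all 3 lie left of it, and for FGFR1, TFAP2C and EZH2 they fall on both sides.

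With the PVT1 siRNAs none of the 9 targets was 2-fold apart from NC, where 2.96% of compared genes passed with siPVT1-1 and 2.53% with siPVT1-2. None passed 1.5-fold either by its brightest probe, against 13.2% and 13.3% of compared genes. The dim second FGFR1 probe, under the level filter, lay 1.84-fold and 1.55-fold below NC with siPVT1-1 and siPVT1-2. With siPVT1-1 the targets ran from -0.44 (EZH2) to 0.46 (TFAP2C) with a median of 0.10, and with siPVT1-2 from -0.32 (BCL2L2) to 0.40 (TFAP2C) with a median of 0.04. All compared genes had medians of 0.01 and -0.01. With arrays centred on their medians, 8 of 9 targets lay above NC with siPVT1-1 and 7 of 9 with siPVT1-2, in place of 5 and 5. All compared genes shifted as well: 36.1% and 34.6% lay below NC with this scaling, against 48.3% and 51.3% with quantile normalization. Values near 0 thus have no settled direction. Between siPVT1-1 and siPVT1-2 the 9 targets ran from -0.21 (EZH2) to 0.36 (CTNNB1), and none passed 2-fold (0.497% of compared genes).

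Genes with the most similar profile over the 4 arrays were found by the distance between log2 levels centred on each gene's mean. The nearest to BCL2L2 were GDAP2 (distance 0.02; mimic minus NC -0.82) and GRAMD2A (0.04; -0.82). CTNNB1 was nearest to CRTC2 (0.03; -0.62) and TST (0.05; -0.61), and ARL2 to MGA (0.02; -0.48) and SOCS5 (0.03; -0.51). E2F3 was nearest to DNAJC15 (0.04; 0.64) and PSRC1 (0.04; 0.59), and E2F2 to ALG14 (0.02; -0.13) and PRUNE1 (0.02; -0.14). The remaining pairs were MB21D2 and MEAF6 for EZH2, ALDOA and VCL for FGFR1, MCM3AP and CEP170 for HDGF, and RAB5IF and TUBA1C for TFAP2C. With 4 arrays such likeness is a description only, and no gene of the 9 was among the nearest 2 of another.

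Other genes named in publications as miR-214 targets were read in the same way. Of 30 listed genes, 26 were measured and 20 passed the level filter, and 1 was 2-fold lower with the mimic than with NC (2.84% of compared genes) and 0 were higher (1.95%). With arrays centred on their medians, these splits over all compared genes turned from 303 lower and 208 higher to 203 lower and 351 higher. The 1 gene was XBP1, a transcription factor gene of the unfolded protein response, which read 17354 on the mimic array, 16296 on siPVT1-1, 19008 on siPVT1-2 and 42110 on NC. XBP1 was low on all 3 treated arrays, at log2 differences from NC of -1.28, -1.37 and -1.15, and the mimic lay within 0.13 of either siPVT1 array. The median of the 20 genes was -0.12 with the mimic, 0.03 with siPVT1-1 and -0.07 with siPVT1-2. Below NC were 14 of the 20 with the mimic, 9 with siPVT1-1 and 13 with siPVT1-2, where 51.9%, 48.3% and 51.3% of compared genes were. With arrays centred on their medians these counts were 12, 7 and 10, where 40.0%, 36.1% and 34.6% of compared genes lay below NC. With averaged probes they were 10, 9 and 10 of 18, where 48.7%, 47.4% and 48.9% did. BCL2L11, which encodes the pro-apoptotic protein BIM, stood at -0.14 with the mimic by its brightest probe, but its second probe gave -1.11 and another 0.36, all above the filter. With siPVT1-2 the second probe gave -1.09 and with siPVT1-1 -0.47, so the BCL2L11 probes disagree on the 2-fold rule.

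**Figure D4:**
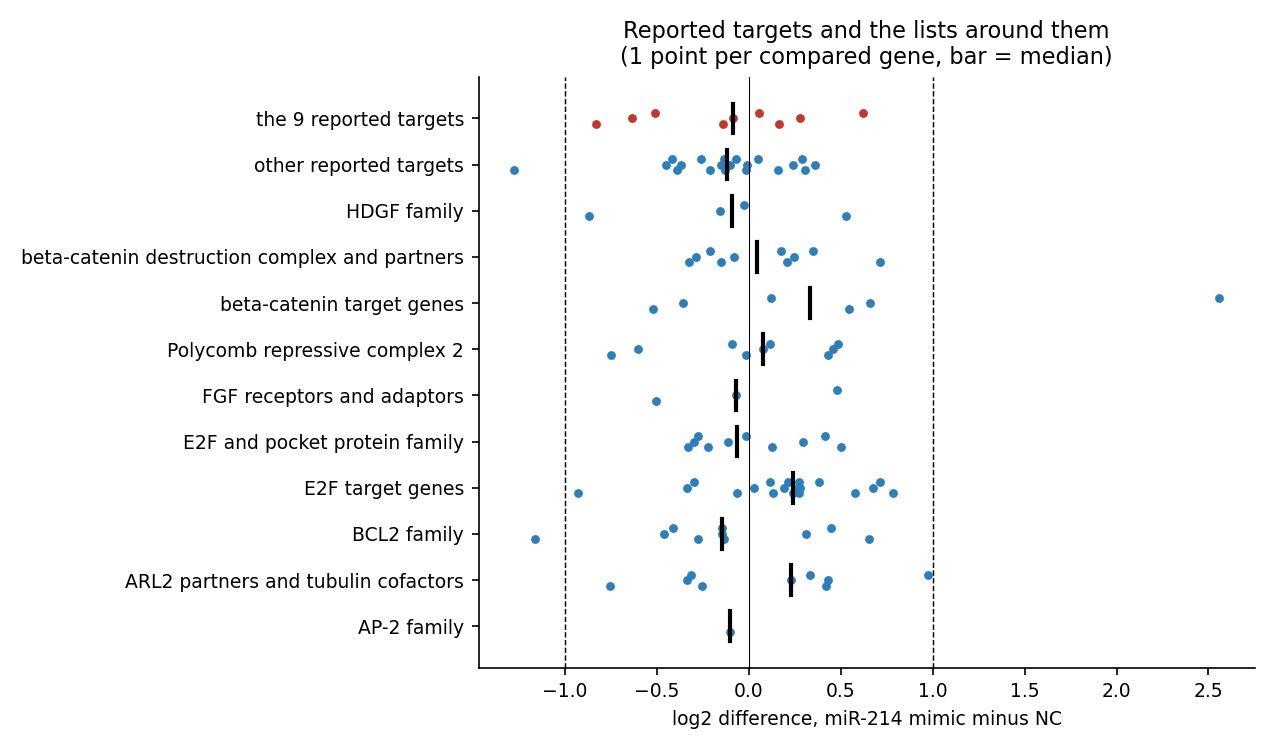
Log2 difference of the mimic array from NC for the compared genes of each list; each point is 1 gene, the black bar is the list median and dashed lines mark 2-fold. The 9 reported targets (red, top) have no point beyond 2-fold, and XBP1, MCL1 and DKK1 are the points beyond it in the other lists.

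The relatives and partners of the 9 targets were read on the same arrays. In the HDGF family, HDGFL3 stood at -0.87 with the mimic, -0.88 with siPVT1-1 and -0.88 with siPVT1-2, and a dim second probe at -0.02, -0.61 and -0.19. HDGFL2 stood at 0.53, 1.36 and 0.85, so that it was 2-fold higher with siPVT1-1 and the mimic minus siPVT1-1 difference was -0.84. PSIP1, which encodes the chromatin tether LEDGF, stood at -0.03, -0.46 and -0.03. Its second probe, also above the filter, gave 0.18, -0.34 and -0.26. Of the FGF receptors other than FGFR1, FGFR3 passed the filter and stood at 0.48, 0.81 and 0.70, and the decoy-like receptor gene FGFRL1 stood at -0.07, 0.23 and -0.02. FGFR4 lay at the floor on all arrays.

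Around beta-catenin, 10 of 15 measured complex members and partners passed the filter and none was 2-fold apart from NC with the mimic, with a median of 0.05. The kinase gene GSK3B, whose product marks beta-catenin for destruction, stood at 0.71 with the mimic, 0.54 with siPVT1-1 and 0.72 with siPVT1-2. Its second probe gave -0.34, -0.03 and -0.01, so its direction rests on the probe. The casein kinase gene CSNK1A1, which acts in the same complex, stood at 0.35, -0.43 and 0.04. Of 11 measured beta-catenin target genes 6 passed the filter, and 1 was 2-fold higher on each treated array, the WNT inhibitor gene DKK1 (2.56, 1.93 and 2.55). The next furthest from NC with the mimic was the growth regulator gene MYC, at 0.66, 0.13 and 0.32. The glutamine synthetase gene GLUL stood at 0.54, 0.45 and 0.63, and the cyclin D1 gene CCND1 at -0.52, -0.15 and 0.00. A second GLUL probe, under the filter, gave 0.17, -0.10 and -0.20. The WNT pathway inhibitor genes NKD1 (-0.36, -0.10 and -0.21) and ZNRF3 (0.12, 0.09 and -0.09) complete the 6, so these genes lay on both sides of NC with the mimic. Another ZNRF3 probe, also above the filter, gave 0.34, -0.11 and -0.04.

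In Polycomb repressive complex 2, all 10 listed partners of EZH2 were measured, 9 passed the filter and none was 2-fold apart from NC on any treated array. The core genes SUZ12 (0.43, 0.24 and 0.40 for mimic, siPVT1-1 and siPVT1-2) and EED (-0.02, 0.01 and 0.10), and the paralogue EZH1 (-0.09, -0.01 and -0.18), did not share the siPVT1-1 value of EZH2. The accessory gene MTF2 stood at -0.75 with the mimic, 0.00 with siPVT1-1 and -0.34 with siPVT1-2, but its second probe gave 0.53, 0.65 and 0.73.

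Of 11 other E2F and pocket protein genes 10 passed the filter, and all 10 stayed within 2-fold of NC on every treated array. E2F1, a further activator E2F, stood at 0.13 with the mimic, 0.47 with siPVT1-1 and 0.29 with siPVT1-2, and the E2F partner gene TFDP1 at 0.41, 0.08 and 0.37. The retinoblastoma gene RB1 stood at -0.33, -0.25 and -0.16. Of 19 E2F target genes, all above the filter, 4 lay below NC with the mimic, 3 with siPVT1-1 and 3 with siPVT1-2, where 51.9%, 48.3% and 51.3% of compared genes did. Their medians were 0.24, 0.16 and 0.25, beside -0.02, 0.01 and -0.01 for all compared genes, and all 3 comparisons share the NC array. The replication origin gene ORC1 was 2-fold higher with siPVT1-2 (1.05) and stood at 0.78 with the mimic and 0.91 with siPVT1-1. The member furthest from NC with the mimic was CDC6, which loads the replicative helicase, and it lay below NC on all 3 treated arrays (-0.93, -0.73 and -0.64). The second probe of the ribonucleotide reductase gene RRM2 gave 0.89, 1.05 and 0.98, against 0.38, 0.40 and 0.25 by the brightest.

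Among the BCL2 family relatives of BCL2L2, 10 of 14 measured genes passed the filter. MCL1, another guardian against apoptosis, was 2-fold lower with the mimic than with NC. It read 13135 on the mimic array, 20721 on siPVT1-1, 18066 on siPVT1-2 and 29413 on NC, and its log2 differences from NC were -1.16, -0.51 and -0.70. The mimic was the lowest array for MCL1 as for BCL2L2, at -0.66 and -0.46 from siPVT1-1 and siPVT1-2. Another guardian gene above the filter, BCL2L1, stood at 0.31, 0.04 and 0.37. PMAIP1, which encodes the killer protein NOXA, was 2-fold lower with siPVT1-1 (-1.41) and stood at -0.46 with the mimic and -0.82 with siPVT1-2. Its second probe gave -1.51 with siPVT1-1, -0.20 with the mimic and -0.59 with siPVT1-2. The killer gene BIK was 2-fold higher with siPVT1-1 (1.06) and stood at 0.45 and 0.84 with the mimic and siPVT1-2.

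Of the 10 measured partners of ARL2, 9 passed the filter and none was 2-fold apart from NC by its brightest probe. UNC119, a carrier of lipid-tailed cargo, stood at 0.98 with the mimic, 0.18 with siPVT1-1 and 0.54 with siPVT1-2. PDE6D, another such carrier, stood at -0.76, 0.02 and -0.29, with the mimic the lowest array as for ARL2. The paralogue ARL3 stood at -0.26, 0.02 and 0.00, while its second probe, also above the filter, gave -1.40, -0.46 and 0.45. The tubulin cofactor gene TBCC stood at 0.42, 0.18 and 0.38, and TBCE at 0.33, -0.46 and -0.48. In the AP-2 family, TFAP2A was the 1 relative of TFAP2C above the filter and stood at -0.10, -0.26 and -0.35, against values above NC for TFAP2C on the siPVT1 arrays. A second TFAP2A probe, at the filter level, gave 0.20, 0.18 and 0.15.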

How the data were processed

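The authors deposited linear background-subtracted intensities of 4 arrays of 28264 probes, as the values show (74 to 131 per array below 0). Their software was not given in the sources used here. Arrays were brought to a common distribution by limma's quantile normalization (limma 3.58.1, R 4.3.3). A floor of 64 preceded the log2 step. Probes took their gene from the platform annotation, with symbols updated by Entrez identifier to GRCh38.p14 (25893 of 25893 matched; 2371 probes had no gene here). The differences in the results carry no test, since each group has 1 array, and were counted at 2-fold; limma's test was run only as an alternative. The number of arrays and signal over background limit the precision. The calling steps were tested on simulated data with 3-fold changes and noise scaled to the siPVT1 pair. Those changes are larger, and that noise smaller, than for the targets between mimic and NC. The simulation therefore does not cover differences as small as those described. The members, lists and limits were chosen with earlier results of these data known. From the family lists any compared relative could be named, and from the other lists the genes past 2-fold or the 2 furthest from NC with the mimic. RRM2, CDC6, MYC, CCND1, GLUL, NKD1, ZNRF3 and BCL2L11 were named after their values were seen. Alternatives were other scalings, filters, floors, probe rules and thresholds, and limma with both siPVT1 arrays as 1 group.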

Additional observations from a re-analysis of the deposited data

How the results depend on the processing

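No paired analysis was possible because each group holds 1 array. The count of compared targets past 2-fold was 0 in all 6 comparisons between arrays with values as deposited, median centring and cyclic loess. It was also 0 with either level filter, averaged probes, a floor of 16 and a 3-fold limit. It became 3 for mimic minus NC and 3 for mimic minus siPVT1-1 at 1.5-fold, because the limit is looser. Treating both siPVT1 arrays as 1 group in limma leaves 1 residual degree of freedom. It assumes that the lone mimic and NC arrays vary like that pair. This fit gave the 9 targets the same standard error (0.29 for mimic minus NC), so their p-values follow the size of the difference alone. It called 912 of 10666 genes (8.55%) for mimic minus NC and 1 of the targets, BCL2L2 (limma, adjusted p = 0.0475), while CTNNB1 had 0.174 and E2F3 0.187. Between mimic and both siPVT1 arrays it called 357 genes (3.35%) and 0 of the 9; at an unadjusted p under 0.05 these were 1391 (13.0%) and 3. A filter at the 75th percentile left 6 targets, and with this smaller set the medians became -0.30 for mimic minus NC, -0.07 for siPVT1-1 minus NC, -0.24 for siPVT1-2 minus NC, -0.12 for mimic minus siPVT1-1 and -0.03 for mimic minus siPVT1-2. With averaged probes FGFR1 fell under the filter, and over the 8 targets left the siPVT1-2 minus NC median was -0.10. Median centring turned the mimic minus NC median to 0.06. The count of other reported targets past the limit became 0 at 3-fold. The mimic was highest for 1 of 8 targets with probes averaged, since the HDGF probes disagree. This count was added after seeing the data. The number of targets lying below every other array by the limit was 1 at 1.25-fold with values as deposited, without CTNNB1. Mimic minus NC ranged from -0.83 to -0.65 for BCL2L2, -0.64 to -0.37 for CTNNB1, -0.51 to -0.25 for ARL2 and 0.62 to 0.80 for E2F3. Relative to quantile normalization, median centring shifted the median of all compared genes against NC by 0.128 (mimic), 0.101 (siPVT1-1) and 0.169 (siPVT1-2), and HDGF then stood at 0.57, 0.42 and 0.51. It also moved the split of higher and lower genes to 184 and 146 with siPVT1-1, against 133 and 183 with quantile normalization, and to 277 and 78 with siPVT1-2, against 142 and 128; as deposited, these splits were 94 and 215, and 95 and 161. Dim probes, such as the second of FGFR1, are the least certain.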
